A study of Mus musculus with 6 samples.

Results

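The genes described are the Wnt ligands, their receptors and the secreted and nuclear genes that modulate the pathway. Members were chosen by symbol alone, as every listed *Wnt*, *Fzd*, *Sfrp*, *Dkk* and *Rspo* gene with a plain number (and an a or b where there is one), together with *Frzb*, *Wif1*, *Axin2*, *Lef1*, *Tcf7*, *Lrp5* and *Lrp6*. This gave 48 of the 53819 genes listed in the count table, made up of 19 ligands, 12 receptors and co-receptors, 10 secreted inhibitors, 4 R-spondins and 3 target or nuclear genes. Of these, 40 passed edgeR's filter on low counts and were tested.

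RNA was sequenced from healing flexor digitorum longus (FDL) tendons of mice at D28 after a surgical transection and repair, with 1 tendon per library. The study used male and female mice. The 3 DTR tendons came from Scx-Cre+; DTR F/+ mice, in which Cre driven by the tendon gene *Scx* switches on the diphtheria toxin (DT) receptor in cells that express *Scx* or descend from cells that did, so that DT kills them. The 3 WT tendons came from Scx-Cre-; DTR F/+ mice, which carried the same unrecombined receptor allele and were given the same DT. All mice had surgery at 10 to 12 weeks of age and received DT (100 ng) on each of 5 days, D14 through D18, so the harvest came 10 days after the last one. A lower count in bulk RNA cannot tell fewer cells of a type from less RNA per cell.

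Wnt proteins are secreted lipid-modified ligands that bind a Frizzled receptor, either with the co-receptors LRP5 and LRP6 to stabilise β-catenin, or with other partners to act without it. Secreted Frizzled-related proteins, WIF1 and Dickkopf proteins limit this binding, while R-spondins protect Frizzled and LRP proteins from being removed from the cell surface. Stabilised β-catenin joins the DNA-binding proteins TCF7 and LEF1 and raises the transcription of targets such as *Axin2*, which itself limits the pathway.

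TCF and LEF proteins bind DNA with the core letters CTTTGA or CTTTGT. The 250 bases before the start site of 4 members are printed here as a description, and no expression result below rests on these sequences. *Axin2* is the classic target, *Fzd4* and *Wnt16* are the members with a promoter entry that passed DESeq2's threshold, and *Fzd1* is the most abundant receptor per kb of exon. The sequences are RefSeq's for GRCm38.p6, written 5′ to 3′ on the gene's strand, with capitals for any of the core letters on either strand. They lie at chr11:108920099-108920348, plus strand for *Axin2*, chr7:89404116-89404365, plus strand for *Fzd4*, chr6:22287977-22288226, plus strand for *Wnt16* and chr5:4758217-4758466, minus strand for *Fzd1*.
Axin2: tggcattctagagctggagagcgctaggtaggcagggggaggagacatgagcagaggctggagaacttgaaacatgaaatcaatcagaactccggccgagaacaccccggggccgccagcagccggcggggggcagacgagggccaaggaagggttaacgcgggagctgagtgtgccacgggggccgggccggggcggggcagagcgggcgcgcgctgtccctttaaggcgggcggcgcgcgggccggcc
Fzd4: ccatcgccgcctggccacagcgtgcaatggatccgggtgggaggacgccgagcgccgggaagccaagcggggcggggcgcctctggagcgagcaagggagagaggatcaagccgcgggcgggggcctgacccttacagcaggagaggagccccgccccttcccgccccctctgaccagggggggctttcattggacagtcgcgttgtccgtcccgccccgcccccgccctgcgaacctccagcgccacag
Wnt16: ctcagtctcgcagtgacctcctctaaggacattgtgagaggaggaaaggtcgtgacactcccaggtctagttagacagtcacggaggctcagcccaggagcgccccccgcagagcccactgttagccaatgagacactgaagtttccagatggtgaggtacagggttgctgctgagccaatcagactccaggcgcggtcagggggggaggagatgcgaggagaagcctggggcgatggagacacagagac
Fzd1: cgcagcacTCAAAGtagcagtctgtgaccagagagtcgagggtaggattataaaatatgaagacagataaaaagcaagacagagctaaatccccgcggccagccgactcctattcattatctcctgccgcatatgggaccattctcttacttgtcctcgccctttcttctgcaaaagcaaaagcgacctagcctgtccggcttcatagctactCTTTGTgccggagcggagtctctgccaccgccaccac
The *Fzd1* window held CTTTGA on the opposite strand at position -242 and CTTTGT at position -37, counted from the start site. The windows of *Axin2*, *Fzd4* and *Wnt16* held neither word. Over the 32 members with an entry, 9 of 39 windows (23.1%) held at least 1 of the words, beside 27.6% of the 32851 windows of all genes. These words are short and such a match describes the letters only.

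The libraries held between 42744138 and 48854310 counts on genes. All 13 tendon markers, *Scx* and *Tnmd* included, were present in each group, with 9 fitted higher in DTR (median log2 fold change 0.30), 4 higher without overlap (*Scx* among them, with 2203 to 3066 normalized counts, scaled by TMM to a common library size, in WT against 3409 to 3534 in DTR libraries) and 1 lower. Skeletal muscle transcripts (30 genes) made up 3.10%, 2.85% and 2.27% of the counts in WT replicates 1, 2 and 3 against 0.396%, 2.77% and 0.749% in DTR replicates 1, 2 and 3, with 29 of the 30 genes fitted lower in DTR and none at 0 throughout a group. Keratinocyte transcripts (20 genes) made up 0.459%, 0.317% and 0.00705% in WT against 0.00455%, 0.00576% and 0.0499% in DTR replicates, with all 19 tested genes fitted lower and 1, *Krt77*, at 0 in every DTR library. WT replicates 1 and 2 thus had the most keratinocyte transcripts, with DTR replicate 3 between them and the other libraries. DTR replicates 1 and 3 had the fewest muscle transcripts. Adipocyte markers (10 genes) were all fitted lower in DTR, 8 of them without overlap, and made up 0.0160% to 0.0239% of the counts in WT and 0.0101% to 0.0166% in DTR libraries. Of 10 Schwann cell markers 9 were fitted lower, 2 without overlap, and of 12 tested cartilage and bone markers 8 were, 3 without overlap. The cartilage and bone share of counts was 0.481% in DTR replicate 1 and 0.177% to 0.258% elsewhere. Macrophage markers were fitted 7 lower and 7 higher, lymphoid 6 and 7, sheath fibroblast 3 and 5, and endothelial 9 and 3 (none without overlap). Of all genes tested, 7.85% were lower and 8.96% higher without overlap. The part of these lists in the members' values was not tested beyond the fits below with muscle or keratinocyte levels as covariates. *Xist* exceeded 1000 counts in 1 WT library (replicate 2) and 2 DTR libraries (replicates 2 and 3). The Y-linked *Ddx3y* was at 0 in these and had 5137 normalized counts in DTR replicate 1, the only DTR library with the male pattern. The part of sex in the members' values was not tested.

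With edgeR's quasi-likelihood test no member had an adjusted p under 0.05, and neither did any of the 17496 genes tested (percent called 0). At an unadjusted p under 0.05, 5 of the 40 tested members were higher in DTR tendons (12.5%) and 4 were lower (10%), beside 5.52% and 5.45% of all genes (11% in either direction). Every DTR library was above every WT library for 4 members (10%) and below for 5 (12.5%), beside 8.96% and 7.85% of all genes (16.8% in either direction). With DESeq2, the tool of the study's own analysis, 2 members rose (*Rspo2* and *Wnt16*) and 1 fell (*Fzd4*) of 41 with an adjusted p, beside 1.12% and 1.53% of 17564 genes (2.65% in either direction). The median log2 fold change of the tested members was -0.084, and that of all tested genes was 0.0082. With 3 tendons against 3, an exact permutation test of a single gene cannot give a two-sided p under 0.1.

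**Figure D1:**
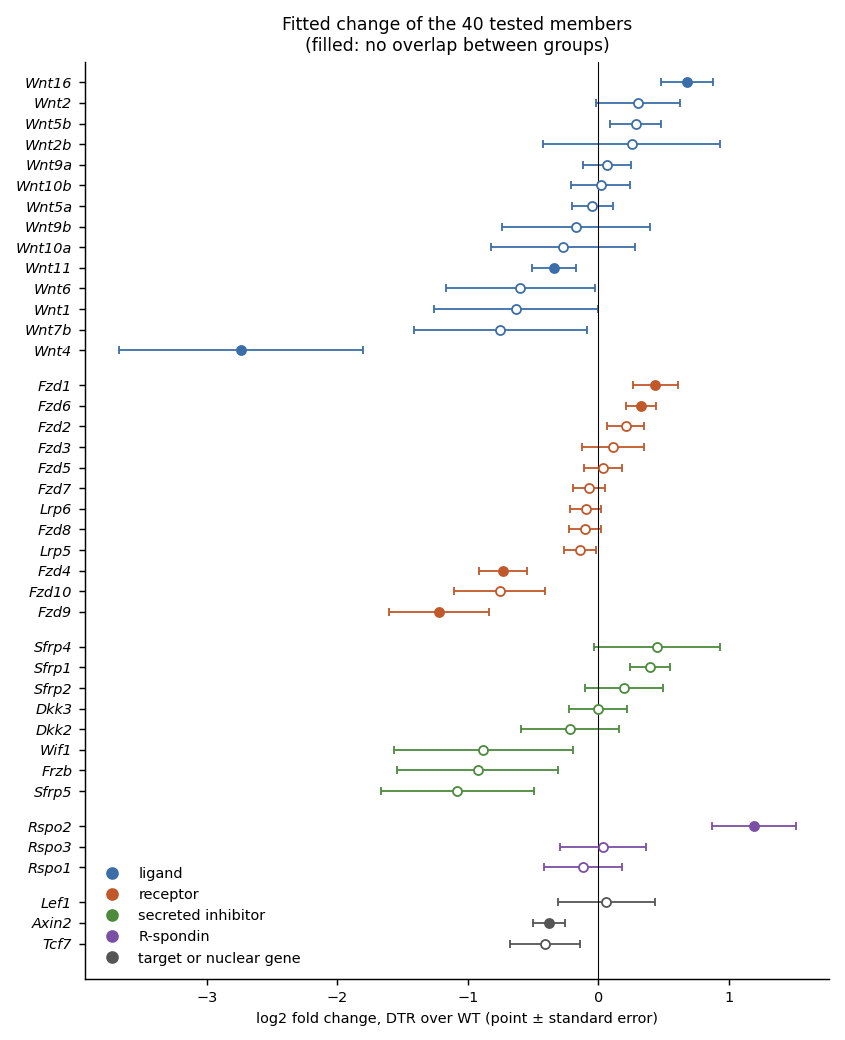
Fitted log2 fold change of DTR over WT (point, with its standard error as a bar) for the 40 tested members, grouped and coloured by role, where filled points mark the 9 members without overlap between the groups. The points run from -2.74 for *Wnt4* to 1.19 for *Rspo2*, and the receptors hold members on both sides of 0.

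Per kb of exon, which allows genes to be set side by side, *Dkk3* was the most abundant member with 5693 ± 440 normalized counts per kb in WT and 5682 ± 1842 in DTR tendons (SD, n = 3). *Fzd1* and *Sfrp1* followed, with 1428 ± 52.2 and 942 ± 65.4 in WT tendons. The summed level of the 19 ligands was 1372 ± 200 per kb in WT and 1439 ± 133 in DTR tendons, less than a secreted inhibitor total of 9029 ± 957 and 9309 ± 1263. The 12 receptors summed to 4542 ± 345 in WT and 4803 ± 504 in DTR tendons. In each of these role sums the groups overlapped.

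**Figure D2:**
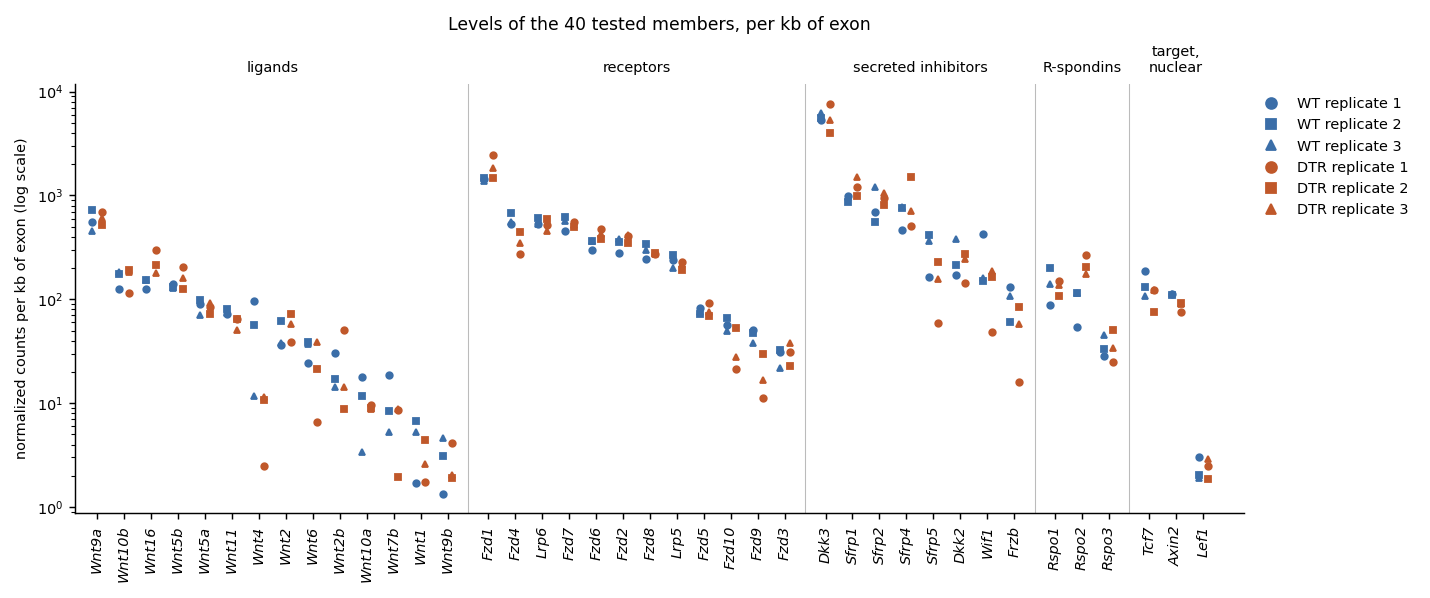
Normalized counts per kb of exon (log scale) of the 40 tested members in each of the 6 libraries, ordered within each role by the WT mean. *Dkk3* and *Fzd1* lead their roles, *Wnt9a* leads the ligands, and the 3 WT and 3 DTR points interleave for most members.

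*Wnt16*, a ligand best known from bone and joint tissue, had 546.4, 674.6 and 664.6 normalized counts in WT against 1312, 926.5 and 777.3 in DTR replicates, given here and below in the order of replicates 1 to 3. All DTR libraries were above all WT libraries, with DTR replicate 1 the highest. Its log2 fold change was 0.68 ± 0.20 (SE, adjusted p = 0.354 in edgeR, 0.049 in DESeq2). Without DTR replicate 1 it was 0.43, and it was 0.47 with muscle transcripts and 0.30 with muscle and keratinocyte transcripts as covariates.

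*Wnt4*, a ligand that acts in kidney, skin and the reproductive tract among other tissues, had 408.3, 238.4 and 48.9 normalized counts in WT against 10.3, 45.0 and 48.3 in DTR replicates. WT replicate 3 lay within 1 normalized count of DTR replicate 3, so the separation rested on a narrow gap. *Wnt4* had the lowest fitted value of the tested members, a log2 fold change of -2.74 ± 0.93 (SE, edgeR adjusted p = 0.423, DESeq2 adjusted p = 0.111). The high *Wnt4* libraries, WT replicates 1 and 2, were also those with the most keratinocyte transcripts, and the log2 fold change was -1.36 with the keratinocyte level as a covariate and -0.39 with muscle and keratinocyte levels together. The ligand *Wnt3*, which was not tested for its low counts, had 36.6 and 24.5 normalized counts in these 2 libraries, 4.11 in DTR replicate 3 and 0 in the others. DTR replicate 3 had more keratinocyte transcripts than WT replicate 3 and DTR replicates 1 and 2. Its 48.3 normalized *Wnt4* counts stood beside 48.9, 10.3 and 45.0 in those libraries. The part of epidermal tissue in these values was not tested beyond these fits.

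*Wnt11*, a ligand that acts mostly without β-catenin, had 298.6, 332.6 and 305.8 normalized counts in WT against 265.0, 266.1 and 209.8 in DTR replicates. The groups did not overlap, and the fitted difference was small, with a log2 fold change of -0.34 ± 0.17 (SE, edgeR adjusted p = 0.487). This difference was -0.29 with the muscle, -0.41 with the keratinocyte and -0.35 with both covariates. *Wnt11* shares 364 exon bases with *Gm8398* on the opposite strand.

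*Wnt9a*, known for its part in joint formation, was the most abundant ligand, with 1831, 2426 and 1525 normalized counts in WT against 2297, 1747 and 2009 in DTR replicates. The groups overlapped widely, and the log2 fold change was 0.07 ± 0.18 (SE, edgeR adjusted p = 0.921). Its share of the summed ligand level was 41.8% ± 3.81 in WT and 42.0% ± 2.02 in DTR tendons (SD, n = 3).

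The other 10 tested ligands overlapped between groups. *Wnt5a* and *Wnt5b*, which act mostly without β-catenin, had log2 fold changes of -0.05 and 0.29, and *Wnt10b*, which restrains fat cell formation, had 0.02. *Wnt2*, *Wnt2b*, *Wnt6*, *Wnt7b*, *Wnt10a*, *Wnt1* and *Wnt9b* had at most 211.4 normalized counts in any library, with log2 fold changes from -0.75 (*Wnt7b*) to 0.30 (*Wnt2*). *Wnt2b* reached 211.4 in DTR replicate 1 and lay between 37.3 and 127.0 elsewhere. Beside *Wnt3*, 4 ligands were not tested. *Wnt3a* and *Wnt7a* had at most 4.71 and 1.88 normalized counts, and *Wnt8a* and *Wnt8b* had 0 counts in all libraries, which allows up to 0.0614 to 0.0702 CPM per library (3 counts, covering counting error only).

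**Figure D3:**
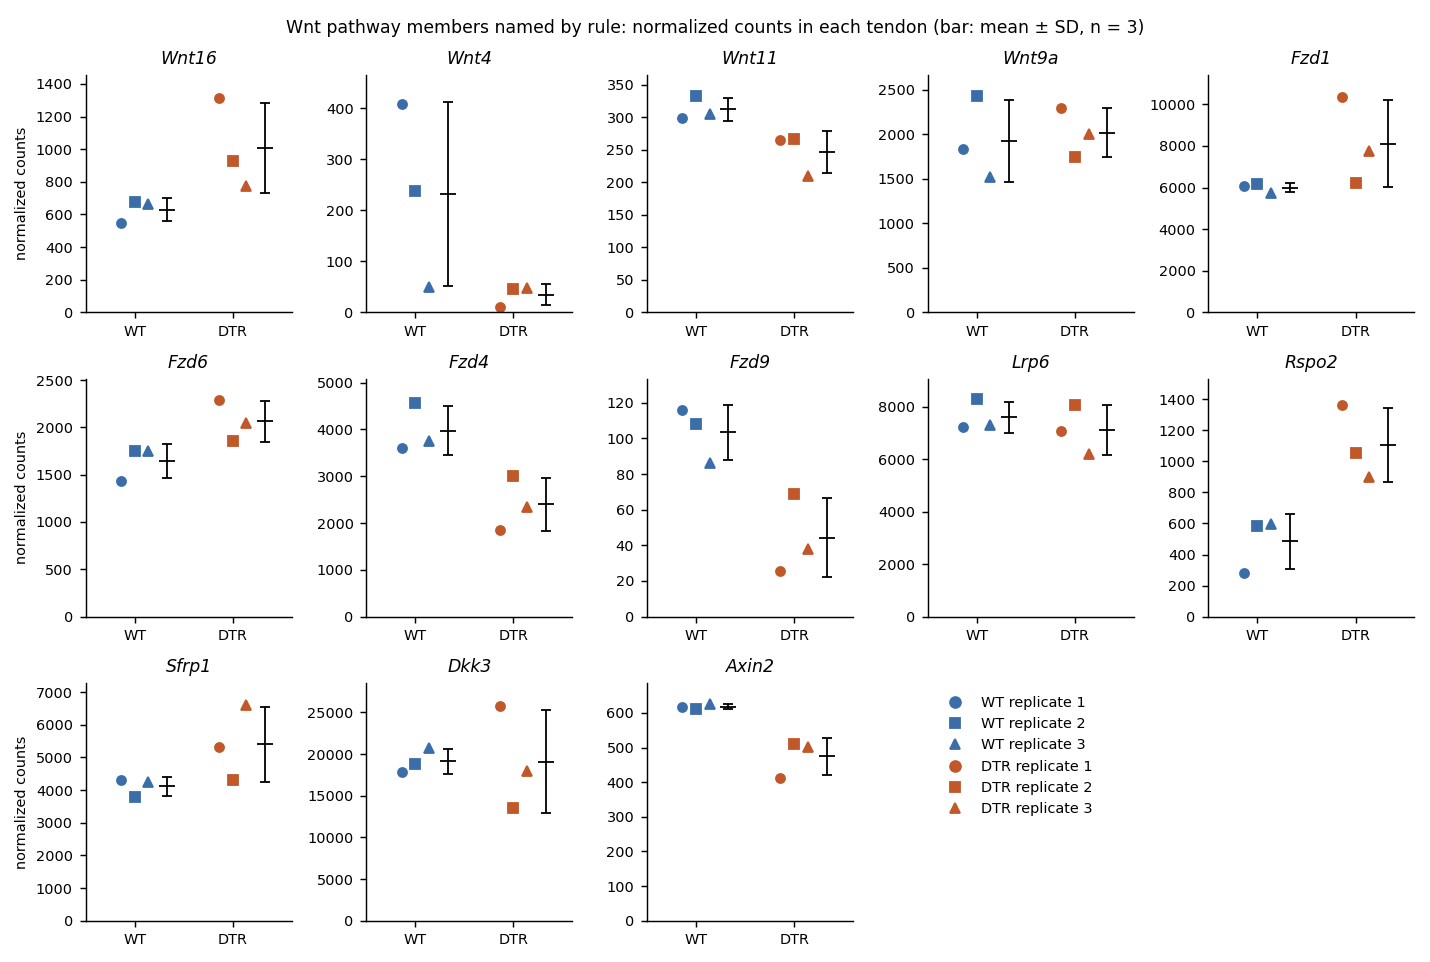
Normalized counts of the 13 members named by rule in each tendon (y axes from 0), with symbols for replicates, colours for groups and the mean ± SD of 3 libraries beside them. *Rspo2* and *Wnt16* sit higher in every DTR library, *Fzd4*, *Fzd9* and *Axin2* lower, and *Wnt9a*, *Lrp6* and *Dkk3* overlap.

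Among the receptors, *Fzd4*, which also serves Norrin signalling in blood vessels, had 3596, 4571 and 3751 normalized counts in WT against 1856, 2998 and 2334 in DTR replicates. Each DTR library was below each WT library. The log2 fold change was -0.73 ± 0.18 (SE), and the adjusted p was 0.323 in edgeR and 0.0093 in DESeq2. *Fzd9*, a receptor studied in bone and muscle, had 115.8, 108.4 and 86.3 normalized counts in WT against 25.8, 68.9 and 38.0 in DTR replicates, again without overlap. Its log2 fold change was -1.22 ± 0.39 (SE, edgeR adjusted p = 0.371, DESeq2 adjusted p = 0.071). *Fzd10* had 184.8, 216.7 and 161.2 in WT against 70.1, 172.3 and 90.5 in DTR replicates, so DTR replicate 2 fell within the WT range.

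In these 3 receptors the DTR libraries kept 1 order, with replicate 1 lowest, replicate 3 next and replicate 2 highest, which was also the order of their muscle transcripts. Among the WT libraries *Fzd9* followed the order of muscle transcripts by share of counts, and *Fzd4* and *Fzd10* did not. The mean log2 CPM of the muscle list, used below as a covariate, ranked the WT libraries otherwise. It was 0.857, 0.909 and 0.475 in WT replicates 1, 2 and 3, relative to the mean of all libraries. *Fzd10* followed that order, and *Fzd4* and *Fzd9* did not. DTR replicate 2 had more muscle transcripts than WT replicate 3 (2.77% against 2.27% of counts), with lower *Fzd4* and *Fzd9* and higher *Fzd10*. How many of all genes kept this order was not counted. With the muscle level as a covariate, the log2 fold change was -0.39 for *Fzd4* and -0.57 for *Fzd9*. Without DTR replicate 2, the DTR library richest in muscle transcripts, edgeR called *Fzd4* (log2 fold change -0.92) and *Fzd9* (log2 fold change -1.69), and 544 genes in all. The adipocyte markers were lower in the same contrast, and their part was not tested.

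**Figure D4:**
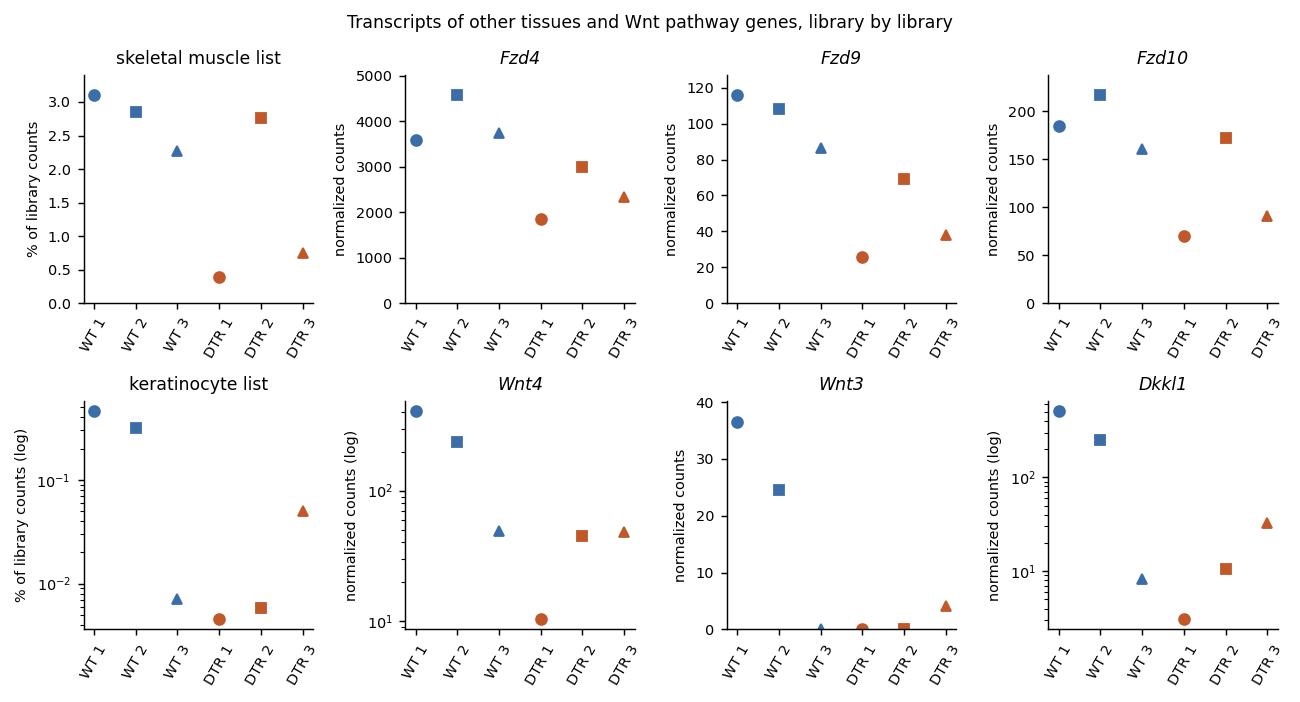
Share of library counts of the skeletal muscle and keratinocyte lists (%; the latter on a log axis) beside normalized counts of *Fzd4*, *Fzd9* and *Fzd10*, and of *Wnt4*, *Wnt3* and *Dkkl1* (log axes for *Wnt4* and *Dkkl1*), 1 point per library. In the upper row DTR replicate 1 is lowest in each panel, and in the lower row WT replicates 1 and 2 are highest in each.

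*Fzd1* had 6068, 6166 and 5747 normalized counts in WT against 10358, 6207 and 7779 in DTR replicates. The lowest DTR library was just above the highest WT library, at 6207.0 against 6165.6. Its fitted log2 fold change was 0.44 ± 0.18 (SE, edgeR adjusted p = 0.447) and fell to 0.22 without DTR replicate 1. It was 0.05 with the muscle covariate and 0.44 with the keratinocyte covariate. *Fzd6*, which acts in planar cell polarity, had 1434, 1749 and 1751 normalized counts in WT against 2285, 1855 and 2051 in DTR replicates, and its groups did not overlap. The *Fzd6* log2 fold change was 0.33 ± 0.12 (SE, edgeR adjusted p = 0.414) and 0.16 with the muscle covariate, and the gene shares 152 exon bases with *Gm26704* on the opposite strand.

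The co-receptor *Lrp6* had the most normalized counts of any receptor before correction for length, on average over the 6 libraries, although *Fzd1* was higher in DTR replicates 1 and 3. It had 7212, 8283 and 7294 in WT against 7076, 8067 and 6177 in DTR replicates. These groups overlapped, with a log2 fold change of -0.10 ± 0.12 (SE, edgeR adjusted p = 0.788). *Lrp5*, its close relative, had a log2 fold change of -0.14. *Fzd2*, *Fzd3*, *Fzd5*, *Fzd7* and *Fzd8* also overlapped, with log2 fold changes from -0.10 to 0.21. *Fzd3* and *Fzd9* were the least abundant receptors per kb of exon, at 28.4 ± 5.92 and 45.1 ± 6.68 in WT tendons (SD, n = 3).

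As shares of the summed Frizzled level per kb, *Fzd1* held 41.6%, 36.3% and 36.8% in WT against 53.5%, 41.0% and 46.5% in DTR replicates. *Fzd4* held 15.4%, 16.8% and 15.0% in WT against 5.98%, 12.4% and 8.71% in DTR replicates. For *Fzd4* the shares did not overlap, and for *Fzd1* DTR replicate 2 was just below WT replicate 1.

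*Rspo2*, a secreted amplifier of Wnt signalling, had 279.3, 582.3 and 593.8 normalized counts in WT against 1365, 1055 and 899.7 in DTR replicates. All 3 DTR libraries were above all 3 WT libraries. It had the highest fitted value of any member, a log2 fold change of 1.19 ± 0.32 (SE, adjusted p = 0.353 in edgeR, 0.0022 in DESeq2). Over the libraries left out in turn it lay between 0.91 (without WT replicate 1) and 1.36 (without WT replicate 3). It was 1.01 with the muscle level, 0.94 with the keratinocyte level and 0.78 with both as covariates.

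The related *Rspo1* and *Rspo3* overlapped between groups, with log2 fold changes of -0.12 and 0.04. *Rspo4* had between 2.06 and 19.8 normalized counts and was not tested. *Rspo2* made up 31.4%, 32.2% and 38.1% of the summed R-spondin level per kb in WT against 59.6%, 56.0% and 50.4% in DTR replicates, while *Rspo1* made up 50.6%, 56.1% and 46.1% in WT against 33.2%, 29.0% and 39.6% in DTR replicates. The most abundant R-spondin per kb was thus *Rspo1* in each WT tendon and *Rspo2* in each DTR tendon. The summed R-spondin level was 278 ± 93.0 per kb in WT and 389 ± 52.5 in DTR tendons (SD, n = 3), with WT replicate 2 above DTR replicate 3.

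**Figure D5:**
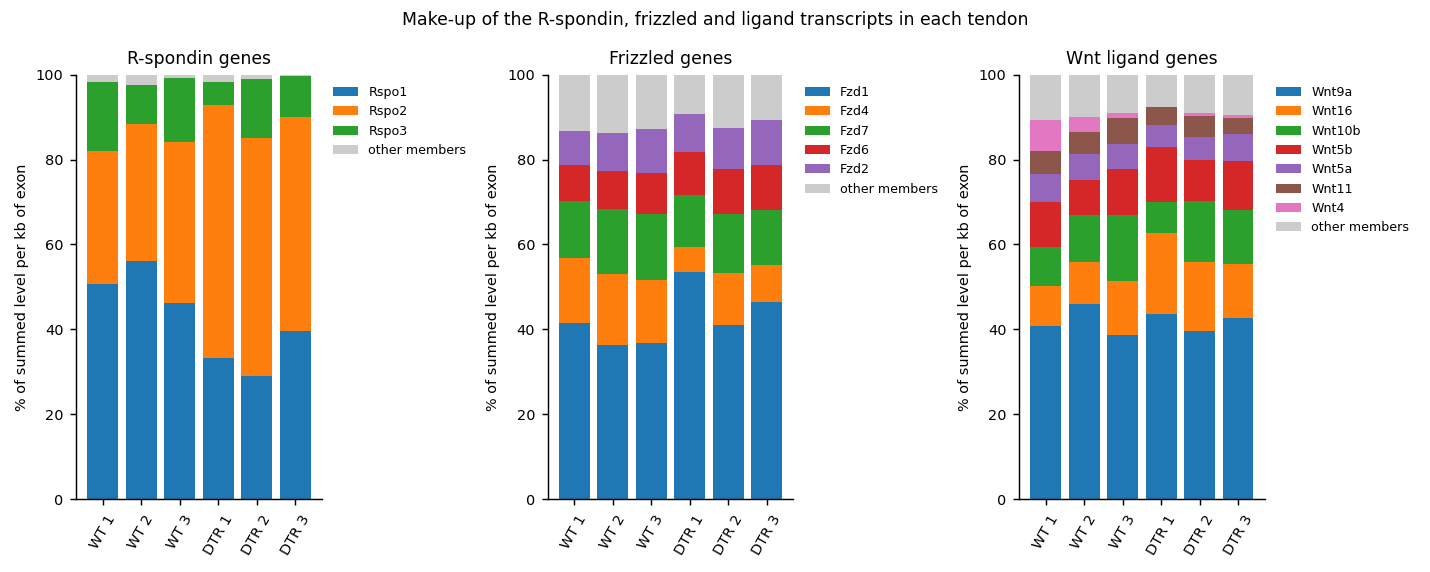
Stacked shares (%) of the summed level per kb of exon that each R-spondin, Frizzled and ligand gene held in each tendon. *Rspo2* is the larger R-spondin share in the 3 DTR tendons and *Rspo1* in the 3 WT tendons, *Fzd4* is smaller in each DTR tendon, and *Wnt9a* holds 38.6% to 46.0% of the ligands throughout.

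Among the secreted inhibitors, *Sfrp1*, a Frizzled-related protein that binds Wnt ligands, had 4324, 3791 and 4238 normalized counts in WT against 5313, 4298 and 6602 in DTR replicates. DTR replicate 2 fell just below WT replicate 1, so the groups overlapped. Its log2 fold change was 0.39 ± 0.15 (SE, edgeR adjusted p = 0.441) and fell to 0.22 without DTR replicate 3. It was 0.15 with the muscle covariate and 0.46 with the keratinocyte covariate. *Dkk3*, a Dickkopf relative that does not bind LRP5 or LRP6 as the other Dickkopf proteins do, had 17833, 18803 and 20736 normalized counts in WT against 25773, 13567 and 17913 in DTR replicates. The highest and the lowest library were both DTR, and the log2 fold change was -0.0030 ± 0.22 (SE, edgeR adjusted p = 0.997). It was -0.52 with the muscle covariate (edgeR adjusted p = 0.631) and -0.59 with both covariates (edgeR adjusted p = 0.567).

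The other 6 tested inhibitors overlapped between groups. *Sfrp4* reached 6291 normalized counts in DTR replicate 2 and lay between 1930 and 3246 elsewhere. *Sfrp5*, *Frzb* and *Wif1* had log2 fold changes of -1.08, -0.92 and -0.88 with standard errors of 0.59, 0.62 and 0.69, and each was lowest in DTR replicate 1. *Dkk2* and *Sfrp2* had log2 fold changes of -0.22 and 0.19. *Dkk1*, the best studied LRP5 and LRP6 blocker, had at most 1.88 normalized counts and *Dkk4* had 0 counts in all libraries.

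*Axin2*, the target most often read as a measure of β-catenin signalling, had 617.5, 610.5 and 625.0 normalized counts in WT against 413.5, 510.2 and 501.8 in DTR replicates. The WT tendons lay close together and each DTR tendon was below them. The log2 fold change was -0.38 ± 0.12 (SE, adjusted p = 0.386 in edgeR, 0.199 in DESeq2). It stayed between -0.43 and -0.29 when each library was left out in turn and was -0.25 with the muscle covariate and -0.23 with both covariates. *Axin2* shares 209 exon bases with *Gm11670* on the opposite strand, and whether the counting used strand was not stated. *Tcf7* and *Lef1*, the DNA-binding partners of β-catenin, overlapped between groups with log2 fold changes of -0.41 and 0.06, and *Lef1* had at most 26.4 normalized counts.

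Beyond the members, 79 further genes of the pathway were listed and 75 tested. edgeR called none of them, with 6 higher and 7 lower at an unadjusted p under 0.05 (8% and 9.33%, beside 5.52% and 5.45% of all genes). Without overlap between groups were 7 higher and 4 lower (9.33% and 5.33%, beside 8.96% and 7.85% of all genes). In either direction these were 14.7% of the 75, under the 16.8% of all genes. DESeq2 called 3 of the 75 (4%, beside 2.65% of all genes), *Ccn4* and *Wls* higher and *Tle1* lower. The median log2 fold change of the 75 was 0.018. Of the secretion genes, *Wls*, which carries Wnt proteins to the cell surface, had 16180, 15642 and 17945 normalized counts in WT against 23287, 20694 and 20821 in DTR replicates (log2 fold change 0.38, edgeR adjusted p = 0.347, DESeq2 adjusted p = 0.035), or 0.22 with both covariates. *Notum*, which removes the lipid from Wnt proteins and is itself a target, had 51.8, 31.1 and 28.1 in WT against 25.8, 13.4 and 16.5 in DTR replicates (log2 fold change -0.99, edgeR adjusted p = 0.449). The *Notum* value was -1.45 with the muscle, -0.83 with the keratinocyte and -1.27 with both covariates. The other 2 genes of this list, *Porcn* (log2 fold change 0.09) and *Trabd2b* (-0.19), overlapped between groups, and the median of the 4 was -0.05.

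Among the 16 tested target genes, *Ccn4* (WISP1), a matricellular protein, had 3360, 2928 and 3749 normalized counts in WT against 6804, 4644 and 4607 in DTR replicates (log2 fold change 0.68, edgeR adjusted p = 0.329, DESeq2 adjusted p = 0.013). With the muscle covariate this was 0.40, and with both covariates 0.27. *Cd44*, the hyaluronan receptor, was also higher in each DTR tendon, with a log2 fold change of 0.38, or 0.23 with the muscle covariate. Of the 16, 10 were fitted higher and 6 lower, and *Twist1* (log2 fold change 0.33) and *Tnfrsf19* (-0.84) also had an unadjusted p under 0.05 but overlapped between groups. Of the 14 nuclear partners, *Tle1*, a co-repressor of TCF proteins, had 1136, 1064 and 1080 normalized counts in WT against 860.0, 815.5 and 709.5 in DTR replicates (log2 fold change -0.46, edgeR adjusted p = 0.274, DESeq2 adjusted p = 0.035). The *Tle1* value was -0.47 with the muscle, -0.50 with the keratinocyte and -0.51 with both covariates. *Tcf7l2*, another DNA-binding partner of β-catenin, was higher without overlap (log2 fold change 0.28), and *Tle4* (-0.39) had an unadjusted p under 0.05 but overlapped.

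Among the 13 genes listed as further receptors and planar polarity genes, *Ror2* and *Celsr3* had log2 fold changes of 0.40 and 0.82, and *Daam2* had -0.32, each without overlap. For *Ror2* the value was 0.08 with the muscle covariate and 0.45 with the keratinocyte covariate. For *Celsr3* it was 0.60 and 1.11, and for *Daam2* -0.37 and -0.39, in the same order. Of the 24 relay and destruction complex genes, *Dvl1* had a log2 fold change of -0.20 and its paralogue *Dvl2* one of 0.10, both without overlap, and *Ctnnbip1* (-0.40) had an unadjusted p under 0.05 but overlapped. None of the 5 R-spondin receptors and their ligases, and none of the 5 tested further inhibitors, passed an unadjusted p of 0.05 in edgeR. With 3 tendons a group this does not show that they were unchanged. The former had log2 fold changes from -1.55 (*Rnf43*, edgeR unadjusted p = 0.092) to 0.45 (*Lgr5*, edgeR unadjusted p = 0.063). The latter ran from -4.03 (*Dkkl1*, edgeR unadjusted p = 0.059) to 0.40 (*Draxin*). In the latter list *Dkkl1* had 505.8, 248.7 and 8.32 normalized counts in WT against 3.09, 10.5 and 32.9 in DTR replicates. It was highest in the 2 libraries with the most keratinocyte transcripts.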

How the data were processed

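RNA from 6 FDL tendons (3 DTR, 3 WT; 200 ng total RNA per library) was sequenced as single-end reads. The authors cleaned the reads with FastP, used featureCounts to count them per gene, and deposited the raw counts. The authors also deposited a signal table, in which each library's counts are divided by its DESeq2 size factor (DESeq2 1.22.1). The aligner, genome build and strand setting are not given in the sources used here, so reads of overlapping and opposite-strand genes cannot be told apart. The labels name 2 library kits, and the titles count D28 from depletion where the methods count from surgery, which is followed here.

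The raw counts were fitted in R 4.3.3, using edgeR 4.0.16 (TMM, filterByExpr by genotype, robust quasi-likelihood fit), limma 3.58.1 and DESeq2 1.42.0. P-values were adjusted by Benjamini and Hochberg over all 17496 genes tested (DESeq2: 17564), with a threshold of 0.05. Standard errors (SE) are the size of the log2 fold change over the square root of its F statistic. Normalized counts are counts scaled by TMM to the mean library size. Levels per kb were divided by the union of exons in GENCODE vM21, matched by symbol (92.8% of genes and all 48 members). Promoter windows came from RefSeq, with 32 members matched.

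Named members were those without overlap between groups, with an unadjusted p under 0.05 or a DESeq2 adjusted p under 0.05, and the most abundant tested member of each role by normalized counts. Of the other pathway genes, those with both no overlap and an unadjusted p under 0.05 were named. *Dkkl1*, *Fzd10*, *Wnt3*, *Dvl2*, *Ctnnbip1*, *Tcf7l2*, *Tle4*, *Twist1*, *Tnfrsf19*, *Porcn*, *Trabd2b*, *Rnf43*, *Lgr5* and *Draxin* were added after their values were seen. The members and gene lists were chosen with earlier results of these data known. The labels number the tendons of each group 1 to 3. P-values set the difference between the groups against the spread between these tendons. Replicates differed by 40.3 to 205 in chi-square per degree of freedom, so none was a duplicate. Set against this spread, counting noise was small for the libraries as a whole. That need not hold for the rarest tested members, such as *Wnt1* with 4 to 17 raw counts. The fits were tested on simulated data.

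Alternatives were DESeq2, RLE and library size normalization, no filter, at least 10 counts in every library, limma on log2 of the deposited signal + 1, a block for the replicate number, leaving out each library, removal of the muscle list, and the mean log2 CPM of the muscle or keratinocyte list as a covariate. Both covariates together were added after the data were seen.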

Additional observations from a re-analysis of the deposited data

How the results depend on the processing

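A total of 10 of the 13 named members and all 9 further pathway genes named kept their direction under the 17 alternatives. These genes were named for a separation of the groups or a small p in the same data. That choice makes a reversal unlikely, so the count is no measure of robustness. *Lrp6*, *Wnt9a* and *Dkk3*, which did not keep their direction, were named for abundance alone. *Lrp6* turned to 0.043 with the muscle covariate and 0.00050 with both covariates, *Wnt9a* to -0.095 with the muscle covariate, and over the libraries left out *Wnt9a* ran from -0.080 to 0.27 and *Dkk3* from -0.28 to 0.19. With the muscle covariate *Dkk3* was -0.52 (unadjusted p = 0.010 and adjusted p = 0.631 in edgeR).

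DESeq2 called 3 members, 3 other pathway genes and 466 genes in all, where edgeR called none, nor did limma call any member. edgeR with no filter called 83 genes, and with the muscle covariate 1 and with both covariates 4. Leaving out each library in turn, edgeR called 0 to 2 members, 0 to 1 other pathway genes and 0 to 544 genes, each upper value without DTR replicate 2. The cause of these differences was not tested. Members with an unadjusted p under 0.05 numbered 9, and 3, 5 and 2 with the muscle, the keratinocyte and both covariates, and 4 to 10 over the libraries left out (4 without DTR replicate 3). For the other pathway genes the 13 became 7 with the muscle covariate, 7 with both, and 5 to 17 over the libraries left out (5 without WT replicate 2). Members without overlap numbered 9, and 7 with library size normalization, 8 with at least 10 counts in every library and 9 to 16 over the libraries left out (16 without DTR replicate 2), where fewer libraries overlap less often.

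The labels do not state whether same-numbered tendons were paired. Same-numbered tendons deviated from their group means with correlations of -0.19, -0.15 and -0.68, and tendons of unlike numbers with -0.45 to 0.56. With 3 libraries per group these correlations cannot decide on a pairing. With the replicate block edgeR called 1 gene and no member, and 9 members had an unadjusted p under 0.05. At 42744138 counts or more per library the spread between tendons, with n = 3, limited precision for all but the rarest members. Muscle and keratinocyte levels differ between the groups, so a covariate fit removes part of any group difference that moves with them.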
